A study of Homo sapiens with 4 samples.

Results

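The Kruppel-like factors followed here were KLF2, KLF3, KLF4, KLF5, KLF6, KLF9, KLF10, KLF11, KLF13 and KLF15, taken as every probe whose symbol in the deposited annotation was 1 of these 10. They covered 16 of 58201 probes and 10 of 34755 gene symbols. The cells were SUM149, an established line from an inflammatory breast cancer, a single line that stands for 1 tumour. Cells had attached to the plate for 24 h and were then left untreated or given 2.5 uM ACY1215 (Ricolinostat), an inhibitor of the deacetylase HDAC6, for 3, 6 or 12 h. Each of the 4 conditions was 1 two-colour array, so the labels give 1 sample a group, the differences have no replicate check, and no test between conditions was possible. The labels name no vehicle for the untreated cells and no untreated sample at the later times, so hours of drug and hours in culture cannot be told apart.

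Kruppel-like factors are zinc finger proteins that bind GC-rich and CACCC elements in promoters and enhancers. KLF2, KLF4, KLF5 and KLF6 mostly act as activators that recruit acetyltransferases. KLF9, KLF10, KLF11 and KLF13 bind the SIN3A corepressor, which carries class I histone deacetylases, and KLF3 binds the CtBP corepressor. Many of these genes are quickly induced by stress, serum, hormones or shear flow, and in epithelia KLF4 is linked to differentiation and KLF5 to growth of basal cells.

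On each array Cy5 held the RNA of the sample and Cy3 a reference labelled as a pool of all treated and untreated SUM149 cells. Values below are log2 ratios of Cy5 over Cy3, and a change is the ratio of a treated array minus that of the untreated array, so that a common reference drops out. Probes spotted 9 or more times on an array gave the technical error of a single change, a pooled SD of 0.16 at 3 h, 0.12 at 6 h and 0.12 at 12 h (log2, 300 probes), which covers spot error within arrays and not differences between cultures. A change was called at 2-fold, a log2 change of 1, where the probe was well above background on the treated and the untreated array, in Cy5 as in Cy3. The median Cy5 signal was 36 to 40 over a local background of 24, 63.3% to 67.0% of genes were above background in Cy5, and 0 spots were saturated. Areas in which at least 10% of nearby spots had a displaced Cy3 signal or an outlier flag, called damaged areas below, held 3.33% of the spots of the untreated array, 4.72% at 3 h, 0.186% at 6 h and 0.00821% at 12 h. Of 5 epithelial markers, all 5 were above background on every array, as were 4 of 5 basal markers, with TP63 not above it. The same held for 4 of 5 luminal hormone receptor markers, at untreated Cy5 signals of 0 to 517, with PGR not above it in untreated cells. Of 4 fibroblast markers, 4 were above it in untreated cells and at 3 h, and 3 at 6 and 12 h. All 4 leukocyte and all 4 endothelial markers were also above background, at untreated Cy5 signals of 17 to 747 and 9 to 213.5, against 3363 to 41383.5 for the epithelial markers. Their part in the results was not tested. HDAC6 itself changed by -0.41, -0.25 and -0.51 at 3, 6 and 12 h, below 2-fold at each time. In a bulk sample, fewer cells expressing a gene and less RNA per cell cannot be told apart.

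KLF5 and KLF2 passed 2-fold upwards in undamaged areas. KLF4, KLF9 and KLF13 lay above untreated at each time without reaching 2-fold, as did KLF10 at 6 and 12 h. KLF6 went from below untreated at 3 h to above it at 12 h, and KLF11 lay below untreated throughout. Of the 10 members, 9 were measured at every time and KLF15 was not. At 3 h 1 of 9 was called higher (KLF10, whose spot lay in a damaged area of that array), against 1.69% of the 20765 genes measured. Without spots in damaged areas the number at 3 h was 0. At 6 h 2 of 9 were called higher (KLF2 and KLF5), against 2.81% of 20342 genes, and at 12 h 1 of 9 (KLF5), against 2.33% of 20478. With median centring in place of loess the call of KLF5 at 12 h was lost, at a change of 0.90, and the number there was 0. None was called lower at 3, 6 or 12 h, against 0.366%, 0.939% and 1.12% of genes.

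At the milder limit of 1.5-fold, a log2 change of 0.585, the members above it were 3 of 9 at 3 h (KLF2, KLF5 and KLF10, against 6.87% of genes), 4 of 9 at 6 h (KLF2, KLF4, KLF5 and KLF10, against 9.4%) and 4 of 9 at 12 h (KLF2, KLF5, KLF6 and KLF10, against 8.09%). Over the alternatives these numbers ran from 2 to 4 at 3 h, 3 to 4 at 6 h and 2 to 5 at 12 h. In Cy5 alone at 12 h KLF2 and KLF6 fell below the limit (0.48 and 0.54) and KLF4 passed it (0.70). None passed 1.5-fold downwards at any time, against 1.96%, 4.42% and 5.13% of genes. That number depended on the processing, since at 3 h KLF6 and KLF11 both passed it with an offset of 1, with the scanner software's ratio and in the authors' table (-0.61 to -0.66), and KLF11 passed it in Cy5 alone at 3 and 6 h and with median centring at 6 h. The median change over the 9 members was 0.45, 0.28 and 0.53 at 3, 6 and 12 h, beside 0.01, 0.02 and 0.01 over all genes measured. Changes were above 0 in 6, 7 and 8 of the 9 members. With each array's Cy5 channel alone the medians were 0.25, 0.11 and 0.54, and the number called was 0, 1 and 1. The 10 factors were picked by name from a larger family with earlier results in view, so these counts describe them and nothing more.

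**Figure D1:**
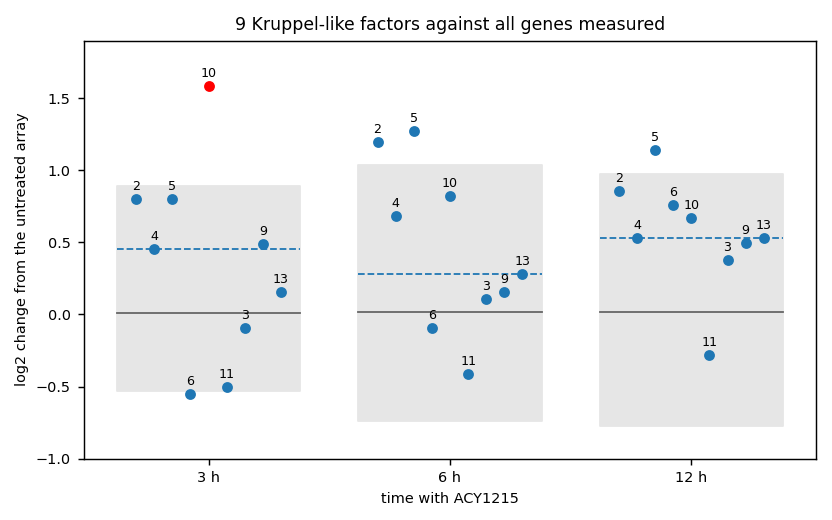
Log2 change of Cy5/Cy3 from the untreated array (vertical axis) at 3, 6 and 12 h; each point is 1 of the 9 measured factors, labelled by its number, the grey box spans the central 95% of all genes measured, the solid line is their median and the dashed line that of the 9 factors. Above the box lie KLF10 at 3 h (red, a spot in a damaged area), KLF2 and KLF5 at 6 h and KLF5 at 12 h, and KLF6 at 3 h lies just under it.

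KLF5, the activator that supports proliferation of basal epithelial cells, rose past 2-fold at 6 and 12 h. Its probe (A_23_P53891) gave log2 ratios of 0.92 in untreated cells, 1.73 at 3 h, 2.19 at 6 h and 2.07 at 12 h. All 3 treated arrays were thus above the untreated one. The changes were 0.80 (1.74-fold), 1.27 (2.41-fold) and 1.14 (2.21-fold). The background-subtracted Cy5 signal went from 985 to 2267.5, 1984 and 1737, while the Cy3 signal of the same spot stayed between 324 and 414. In Cy5 alone the changes were 0.95, 1.08 and 1.03. Set among all genes measured, KLF5 ranked in the top 3.4%, 1.26% and 1.53%. With median centring the change at 12 h was 0.90, below 2-fold. The values at 6 and 12 h differed by -0.13, about 1 technical SD, and 6 h exceeded 3 h by 0.47.

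The genes whose 3 changes lay nearest to those of KLF5, by Euclidean distance over the 3 times among 18561 genes, were FAM126A (distance 0.053), LACTB (0.07), CCDC88A (0.079), CMTM6 (0.086) and SH3PXD2B (0.093). FAM126A, for instance, changed by 0.82, 1.25 and 1.19. These 5 are the closest by construction, and the 3 changes of any gene share the untreated array.

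KLF2, known for keeping T cells quiescent and for the response of endothelium to flow, rose 2.29-fold at 6 h. Its probe (A_23_P119196) gave log2 ratios of -3.16 untreated, -2.36 at 3 h, -1.97 at 6 h and -2.31 at 12 h. The untreated array was the lowest and the 6 h array the highest. The changes were 0.80 at 3 h, 1.20 at 6 h and 0.86 at 12 h, in the top 3.45%, 1.52% and 3.58% of genes. The 3 h and 12 h values lay closer together than the technical SD, and the step from 6 to 12 h was -0.34. The Cy5 signal was dim, at 49, 128, 142 and 81.5 above background, with Cy3 between 657 and 767. At such signals the offset of 50 added before the logarithm shrinks a change. With an offset of 1 the 6 h change was 1.64, and in Cy5 alone the changes were 0.68, 0.96 and 0.48, so that in that channel no time passed 2-fold.

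KLF4, a pluripotency factor that also activates the cell cycle inhibitor CDKN1A in epithelia, gave log2 ratios of -0.19, 0.26, 0.49 and 0.34 in untreated cells and at 3, 6 and 12 h (probe A_23_P32233). Every treated array was above the untreated one. The changes of 0.45, 0.68 and 0.53 correspond to 1.37-fold, 1.60-fold and 1.44-fold, each more than 2 technical SDs and none past the 2-fold limit. The Cy5 signal, 49.5 in untreated cells, was 126, 122.5 and 103.5 later, and the dim Cy3 signal also went up, from 57 to 70 to 77.5. Cy5 alone gave 0.66, 0.79 and 0.70. By the scanner software's own ratio the change at 6 h was 1.24, past 2-fold.

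KLF2 and KLF4 are textbook targets of the MEK5-ERK5 kinase cascade, which acts through MEF2 factors, and their upstream sequence is shown because genes of that cascade reached 2-fold (MAP3K3 and MEF2C, described further on). Each line gives the 250 bases before the RefSeq gene start in GRCh38.p14, at chr19:16324576-16324825 on the plus strand for KLF2 and chr9:107489770-107490019 on the minus strand for KLF4, read 5′ to 3′. Capitals mark GC boxes (GGGCGG on either strand), the type of site that factors of the KLF and SP family bind, and in KLF2 also the match to the MEF2 site.
KLF2: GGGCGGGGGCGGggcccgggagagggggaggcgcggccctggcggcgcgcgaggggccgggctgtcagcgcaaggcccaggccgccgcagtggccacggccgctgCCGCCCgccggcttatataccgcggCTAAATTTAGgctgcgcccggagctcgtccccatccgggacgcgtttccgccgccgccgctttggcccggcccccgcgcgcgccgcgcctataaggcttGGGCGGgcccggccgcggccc
KLF4: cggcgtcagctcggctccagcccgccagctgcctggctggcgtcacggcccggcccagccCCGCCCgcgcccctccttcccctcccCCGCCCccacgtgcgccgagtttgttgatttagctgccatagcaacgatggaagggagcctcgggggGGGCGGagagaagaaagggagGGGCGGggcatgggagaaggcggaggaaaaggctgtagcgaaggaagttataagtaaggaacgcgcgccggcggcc
Each window held 4 GC boxes, a motif found at least once in 42.3% of 27305 promoter windows of that length. Searched on both strands, KLF2 held 1 match to the MEF2 site, 120 to 111 bases before the start, which 0.535% of windows had, and KLF4 held none. The windows were 80.0% GC in KLF2 and 69.2% in KLF4, against a median of 58.0%. In the other member windows searched, GC boxes numbered 0 in KLF5 and KLF9, 2 in KLF6 and KLF11, 3 in KLF13 and 6 in KLF15. None of those windows held a match to the MEF2 site. These are matches of letters, and binding was not measured.

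**Figure D2:**
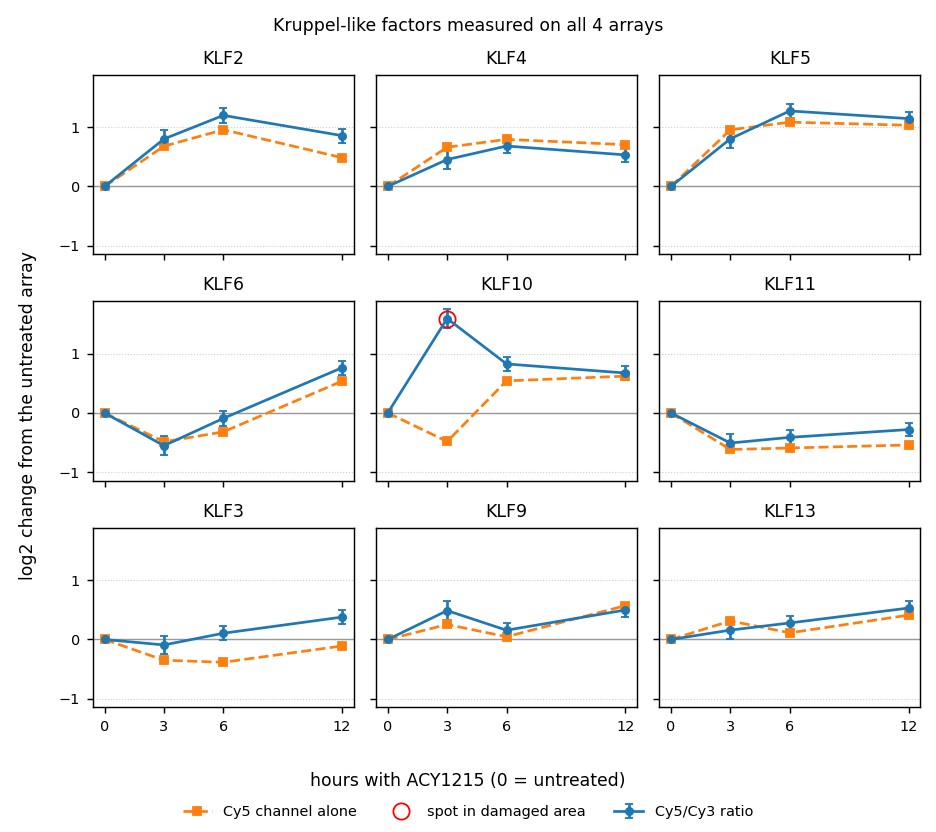
Log2 change from the untreated array (vertical axis) against hours with ACY1215 (horizontal axis) for the 9 factors measured on all arrays, 1 array a time; circles are the Cy5/Cy3 ratio with the pooled technical SD as error bar, squares the Cy5 channel alone, dotted lines 2-fold. KLF2, KLF4, KLF5, KLF9 and KLF13 lie above 0 and KLF11 below 0 at all 3 times by both measures, and for KLF10 at 3 h the measures have opposite signs.

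KLF6, a widely expressed stress-responsive factor and growth regulator, was the member with the largest step between 6 and 12 h. Its brightest probe (A_23_P63798) gave log2 ratios of -0.94 untreated, -1.49 at 3 h, -1.03 at 6 h and -0.18 at 12 h. The 12 h array was the highest and the 3 h array the lowest, and by this ratio the untreated and 6 h arrays differed by less than the technical SD. The changes were -0.55, -0.09 and 0.76. In Cy5 alone they were -0.49, -0.32 and 0.54. At 6 h the scanner software's ratio (-0.35) and median centring (-0.31) also put KLF6 below untreated by more than the technical SD. With median centring the 12 h change was 0.41. From 6 to 12 h the ratio climbed by 0.85, which ranked 21 of 20717 genes, and from 3 to 12 h by 1.31. The Cy5 signals behind this were 2249, 1779.5, 1599.5 and 2670 above background, and Cy5 alone gave the same 6 to 12 h step of 0.85. The untreated array does not enter that step, and the spot lay in no damaged area. A probe for another KLF6 transcript (A_33_P3367615) changed by -0.10, -0.05 and 0.09 at Cy5 signals of 9 to 17.5, too close to background to show a change of this size. The last KLF6 probe was above background in Cy5 on no array.

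KLF10 and KLF11 are the TGF-beta inducible early genes, which pass the growth-inhibitory signal of that cytokine on by repressing genes such as SMAD7 and MYC. For KLF10 (A_23_P168828) the log2 ratios were -0.69 untreated, 0.90 at 3 h, 0.14 at 6 h and -0.01 at 12 h. The change at 3 h was 1.59, rank 47 of 20765 genes. That spot lay in a damaged area of the 3 h array, the only member probe in such an area. Its Cy3 signal there was 132, against 661, 562 and 672 on the other 3 arrays, while its Cy5 signal was 391 against 511 untreated. In Cy5 alone the change at 3 h was -0.48, rank 19126, so the direction of KLF10 at 3 h is not settled by these arrays. At 6 and 12 h, in undamaged areas, its changes were 0.83 and 0.67 by the ratio and 0.54 and 0.62 in Cy5 alone, above untreated by both and below 2-fold.

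KLF11 (A_23_P44505) was the 1 member below untreated at every time, with log2 ratios of -0.58, -1.08, -0.99 and -0.86. The untreated array was the highest of the 4. The changes were -0.51, -0.41 and -0.28, each over 2 technical SDs. Cy5 signal was 353.5 untreated and 240, 205 and 198 later, with Cy3 steady at 420.5 to 445, and Cy5 alone gave -0.62, -0.59 and -0.54. A further KLF11 probe was not above background on any array.

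**Figure D3:**
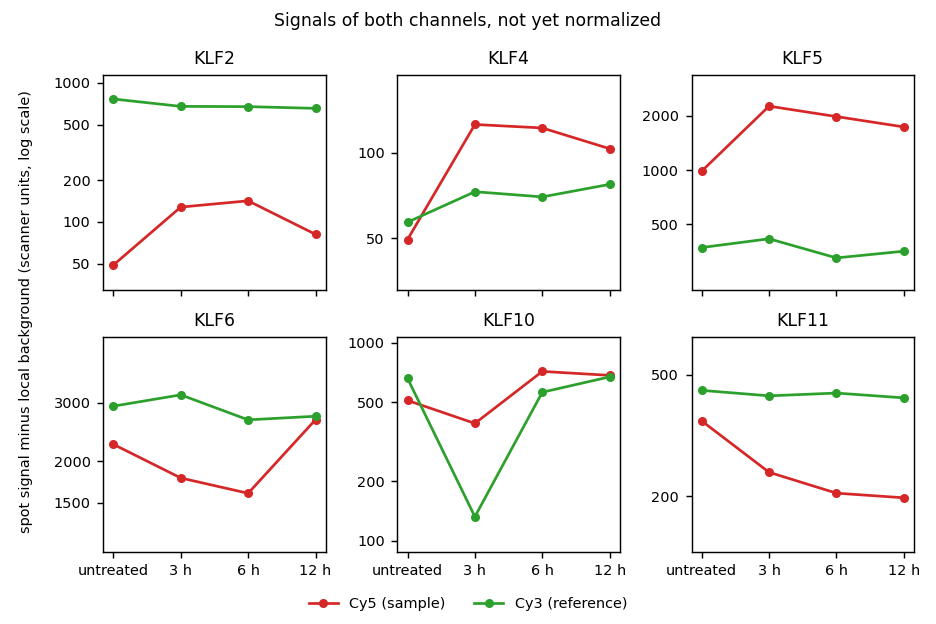
Background-subtracted signal of Cy5 (sample, red) and Cy3 (reference, green) in scanner units on a log axis, for 6 factors on the 4 arrays, each point 1 probe on 1 array before normalization. Cy5 of KLF2, KLF4 and KLF5 is lowest on the untreated array, Cy5 of KLF11 is highest there, and the Cy3 signal of KLF10 drops to 132 at 3 h.

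KLF9, a glucocorticoid and thyroid hormone responsive repressor, KLF13, which activates CCL5 in T cells, and KLF3, the CtBP-binding repressor, passed 1.5-fold at no time. The log2 ratios of KLF9 (A_23_P415401) were -1.001, -0.52, -0.84 and -0.51, with changes of 0.49, 0.16 and 0.50. It thus stood above untreated by about the same amount at 3 and 12 h and by little more than the technical SD at 6 h. KLF13 (A_32_P197489) had ratios of 0.19, 0.35, 0.47 and 0.72, and its changes of 0.16, 0.28 and 0.53 made 12 h the highest array. At 12 h both the ratio and Cy5 alone (0.41) put it above untreated. Of its other 3 probes, 1 was above background in Cy5 on all arrays at signals of 9.5 to 12 and changed by 0.02, -0.09 and -0.03. KLF3 (A_24_P414376) had ratios of -0.72, -0.81, -0.62 and -0.34 and changes of -0.09, 0.11 and 0.38. Its direction depended on the measure, since Cy5 alone gave -0.35, -0.38 and -0.11 and Cy3 fell from 649 to 505 over the same arrays.

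From 6 to 12 h the ratios of KLF9, KLF3 and KLF13 moved by 0.34, 0.27 and 0.25, and that of KLF11 by 0.13, in the same direction as KLF6, while those of KLF2, KLF10, KLF4 and KLF5 moved by -0.34, -0.15, -0.15 and -0.13. KLF15, a metabolic factor induced by glucocorticoids, had Cy5 signals of 5, 7, 3 and 15 (A_23_P40805) and Cy3 signals of 4.5, -4.0, 5 and 14, after subtraction of the local background. It was well above background in Cy5 only at 3 and 12 h, and since both channels went up together at 12 h no fold is given. Over all 16 member probes, 11 were above background in Cy5 on all 4 arrays, 1 on 2 arrays, 1 on 1 array and 3 on none.

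**Figure D4:**
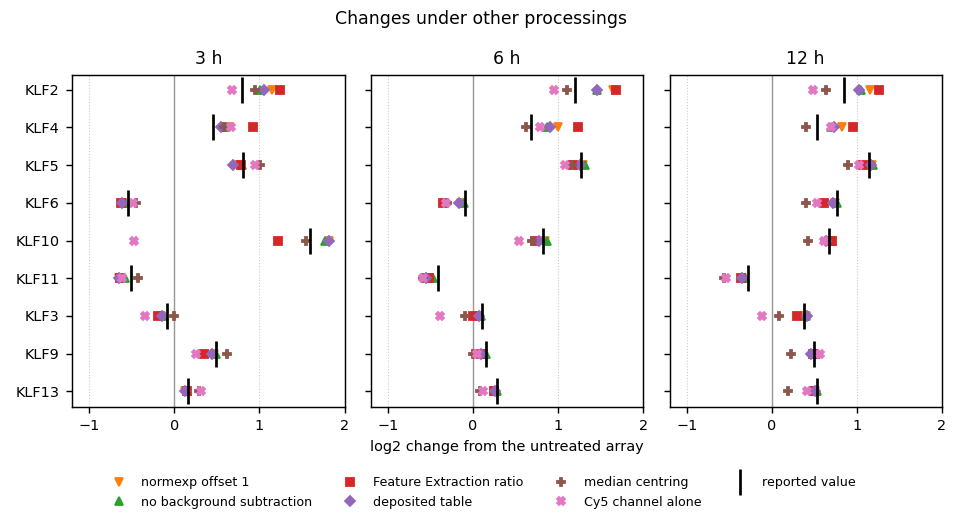
Log2 change from the untreated array (horizontal axis) of the 9 measured factors at 3, 6 and 12 h; the black bar is the value reported here and each symbol 1 other way of processing the same arrays, dotted lines mark 2-fold. KLF5, KLF2, KLF4 and KLF13 stay right of 0 and KLF11 left of 0 in every panel, and KLF10 at 3 h falls to -0.48 in the Cy5 channel alone. With the median over probes, not drawn, KLF13 was at -0.045 at 12 h.

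Other family members and partners of these factors were set beside all genes measured. Of those genes 1.69%, 2.81% and 2.33% were at least 2-fold higher at 3, 6 and 12 h, and 0.366%, 0.939% and 1.12% lower. The lists are short, so their counts past 2-fold describe the genes listed and nothing more. Of 16 other KLF and SP members, 15 were measured at 3 h and 14 at 6 and 12 h, none passed 2-fold in either direction, and their medians were 0.12, 0.04 and 0.09. The largest change was that of SP6, a factor of tooth and skin development, at 0.71 at 6 h. Of 9 corepressors and coactivators that the factors bind, including SIN3A, HDAC1 and EP300, none passed 2-fold, with medians of 0.03, 0.10 and 0.09. The largest change there was -0.74 at 12 h for CREBBP, an acetyltransferase. Of 5 ubiquitin ligases that mark KLF proteins for breakdown, 1 passed 2-fold, FBXW7 at 3 h with 1.32, whose spot lay in a damaged area of that array and gave 0.69 in Cy5 alone.

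The MEK5-ERK5-MEF2 list of 7 genes, all measured, had medians of 0.50, 0.73 and 0.30. At 3 and 6 h the median was the value of MEF2D, and with the other MEF2D probe the medians were 0.35, 0.01 and 0.21. In Cy5 alone they were 0.36, 0.54 and 0.07. At least 2-fold higher were 1 gene at 3 h, 2 at 6 h and 1 at 12 h, against 1.69%, 2.81% and 2.33% of all genes measured. None was lower, against 0.366%, 0.939% and 1.12%. MAP3K3, a kinase at the head of the cascade, had changes of 1.07, 1.48 and 1.21, with Cy5 signals of 1071 untreated and 2783, 2586.5 and 1731.5 later. In Cy5 alone MAP3K3 changed by 1.13, 1.36 and 0.915, below 2-fold at 12 h. MEF2C, a transcription factor at the end of the cascade, changed by 0.63, 1.24 and 0.90 at dim Cy5 signals of 28.5, 51, 133.5 and 76. Its changes in Cy5 alone were 0.26, 1.20 and 0.73. The related MEF2A gave 0.54, 0.94 and 0.30, and in Cy5 alone 0.48, 0.57 and -0.07. For MEF2D the probes disagreed, with 0.50, 0.73 and 0.64 from the one with the brighter reference and -0.09, -0.15 and -0.14 from the other. The 3 kinases left did not reach 1.5-fold. MAP3K2, also at the head of the cascade, changed by -0.29, -0.05 and 0.00, MAP2K5 (MEK5 itself) by -0.10, 0.01 and 0.21, and MAPK7 (ERK5 itself) by 0.35, -0.04 and -0.07. These 3, MEF2A and MEF2D were named after their values had been seen.

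Of 8 TGF-beta ligands, receptors and SMADs, upstream of KLF10 and KLF11, the medians were 0.04, -0.03 and 0.00. Past 2-fold was 1 gene, the ligand TGFB2, at -1.01 at 6 h, where 0.939% of all genes measured were lower, and -0.39 at 12 h. Of 6 glucocorticoid receptor and hormone target genes, DUSP1, a phosphatase of MAP kinases, was 2-fold higher at 6 h (1.24) and 12 h (1.33), against 2.81% and 2.33% of genes. Its spots lay partly in a damaged area at 3 h, where the change was 0.74. The medians of that list were 0.20, 0.12 and 0.02.

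Of 23 textbook target genes of these factors 19 were measured, with medians of 0.07, 0.06 and 0.26. At 3 h 1 was at least 2-fold higher, against 1.69% of all genes measured. At 6 h 2 were higher and 1 lower, against 2.81% and 0.939%, and at 12 h 2 were higher, against 2.33%. S1PR1, the receptor by which lymphocytes leave lymph nodes and a target of KLF2, had changes of 1.58, 1.47 and 1.35, from Cy5 signals of 33 untreated to 230, 167 and 132.5. THBD, the anticoagulant receptor thrombomodulin and likewise a target of KLF2 in endothelium, went the other way, with -0.81, -1.10 and -0.86 and Cy5 signals of 454, 216, 124 and 139. The textbook targets of KLF2 thus moved in both directions. CDKN1C, a cell cycle inhibitor, changed by 0.56, 1.28 and 1.27. In Cy5 alone its changes were 0.22, 0.995 and 0.96, past 2-fold at no time. S1PR1 (1.52, 1.37 and 1.19) and THBD (-1.04, -1.44 and -1.24) passed 2-fold at every time in that channel.

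**Figure D5:**
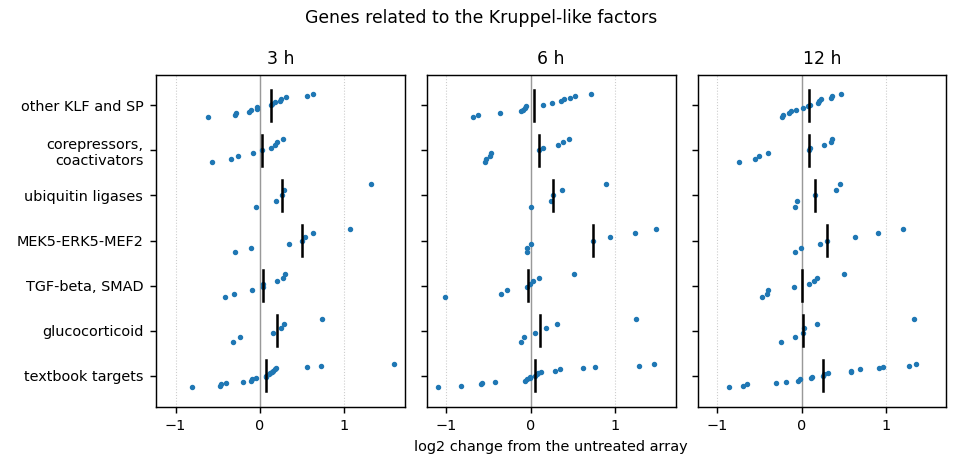
Log2 change from the untreated array (horizontal axis) at 3, 6 and 12 h for genes of 7 lists related to the Kruppel-like factors; each dot is 1 measured gene, the vertical bar the median of its list, dotted lines 2-fold. The median of the MEK5-ERK5-MEF2 list lies at 0.50, 0.73 and 0.30, and at 0.35, 0.01 and 0.21 with the other MEF2D probe, which is not drawn.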

How the data were processed

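RNA of SUM149 cells was hybridised to 4 two-colour Agilent arrays, 1 per condition. Per array, the authors deposited spot and local background intensity in both channels and a log10 ratio, from Feature Extraction 12.0.1.1, with flags for signals above background and for outliers. A further deposited table held normalized log2 ratios, whose method is not given in the sources used here. Column medians of that table were 0.06, 0.06, 0.04 and 0.04, and its values correlated across probes with those used here at 0.973 or above. The array design was annotated on hg19, so that probe positions were not used with the GRCh38.p14 sequences from RefSeq. Of 10 members, 8 had a promoter entry.

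Median signals of 62976 spots per array (2075 of them controls) were background-corrected by normexp with an offset of 50 and normalized by loess within arrays and Aquantile between arrays, in limma 3.58.1 and R 4.3.3. Control spots and spots flagged as outliers were left out. Repeat spots were averaged by probe. A gene took its probe of highest mean Cy3 signal. Other values came from Python 3.11.15, numpy 2.4.6 and pandas 2.3.3. Steps were checked on simulated data with changes planted in bright spots only. That check did not cover dim signals or damaged areas. Groups came from the sample titles. With 1 array per time point no test was made, and precision is limited by how few arrays there are. Damaged areas were windows of 13 rows by 7 columns with at least 10% of spots flagged as outliers or with Cy3 over 2-fold from the median of the arrays. The Cy5 channel alone took the same background correction and outlier filter, then quantile normalization between arrays, without loess. It thus differs from the ratio in normalization as well as in leaving out the reference.

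All members were named, with HDAC6, the genes of each related list past 2-fold or, where there was none, its largest change. In the list of textbook targets 1 gene is not reported here. The members, lists and limits were chosen with earlier results of these data known. The 12 alternatives covered background correction, normalization, the single channel, the authors' table, the filters, the probe rule, the fold limit and damaged areas. The other MEF2D probe, Cy5 alone for the related lists and the 1.5-fold limit under each alternative were added after seeing the data.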

Additional observations from a re-analysis of the deposited data

Results flagged for a closer look

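The Cy3 reference signal of KLF10 stood apart on the 3 h array. Its gap to the nearest of the other arrays made up 0.87 of the range over the 4 arrays, above Dixon's critical share for 4 arrays, which chance passes in about 1 of 20 groups. The normalized log2 Cy3 signals of KLF10 spanned 1.95, and the spot lay in a damaged area of that array. For the other 9 members the share was 0.331 to 0.517.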

How the results depend on the processing

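No paired analysis was possible because no condition has more than 1 array. No member was called lower at 2-fold under any alternative. The number called higher at 3 h was 2 with a normexp offset of 1, no background subtraction, the scanner software's ratio, median centring and the authors' table, and 0 in the Cy5 channel alone and without damaged areas. Where it was 2, 1 of them was KLF10, whose spot lay in a damaged area. The other was KLF5 with median centring (1.001) and KLF2 in the other settings. At 6 h the number called higher was 3 with an offset of 1 and the software's ratio (KLF4 passed, at 1.004 and 1.238) and 1 in Cy5 alone. At 12 h it was 2 with an offset of 1, no background subtraction, the software's ratio and the authors' table, and 0 with median centring. Calls over all genes moved too. At 3 h they went from 351 to 688, 542, 677, 521 and 531 in the order given, and to 238 in Cy5 alone. At 6 h they went from 572 to 1019, 1127 and 495. At 12 h they went from 478 to 918, 706, 1031 and 751, and to 263 with median centring. At 1.5-fold the numbers were 3, 4 and 4, and over the alternatives 2 to 4 at 3 h, 3 to 4 at 6 h and 2 to 5 at 12 h. The median change of the members was 0.25 at 3 h and 0.11 at 6 h in Cy5 alone, 0.08 at 6 h and 0.40 at 12 h with median centring, 0.16 at 6 h with the median over probes, and at 12 h 0.71 with an offset of 1 and 0.70 with no background subtraction. KLF10 at 3 h reversed to -0.48 in Cy5 alone.

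Leaving out the between-array step, both changes of the background filter and leaving out damaged areas cannot move a measured member's ratio outside such areas. Under the other alternatives 120 of 189 member values moved by less than the technical SD, 69 by more, and 6 took the opposite sign. These values include the median over probes, with 20 of 27 within the technical SD. That setting cannot move KLF2, KLF3, KLF4, KLF5, KLF9 or KLF10, each with a single probe. KLF2 exceeded KLF5 at 6 h with an offset of 1 (1.64 against 1.29), no background subtraction, the software's ratio and the authors' table, and at 12 h with the software's ratio (1.258 against 1.075). Members past 1.5-fold downwards numbered 0 to 2 at 3 h and 0 to 1 at 6 h. Over all settings KLF5 ranged from 0.69 to 1.001 at 3 h, 1.08 to 1.31 at 6 h and 0.90 to 1.19 at 12 h, KLF2 from 0.68 to 1.24, 0.96 to 1.69 and 0.48 to 1.26, and KLF11 stayed below 0. Median centring moved the median of all genes at 12 h to -0.16, and the share of 2-fold calls that were higher there from 67.6% to 27.2%. In Cy5 alone that share was 39.7% at 3 h, against 82.2%. The cause was not tested. Changes of KLF15 and of the dim KLF6, KLF11 and KLF13 probes are limited by signals near background.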
